A study of Mus musculus with 10 samples.

Results

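Histone lysine methylation is set by writer enzymes and removed by eraser enzymes, and 41 genes for such enzymes and for the core of the Polycomb repressive complex PRC2 were followed in the prefrontal cortex of Arid1b-mutant mice. The genes were chosen from a list of symbols, with no threshold on their values, and all 41 were found among the 18216 genes of the deposited expression table. All 41 also passed the filter for testing, a mean of at least 10 normalised counts, as 16781 genes did in all. A normalised count is an estimated read count per gene divided by a factor that evens out library depth.

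RNA from the prefrontal cortex of 10 male mice at postnatal day 10 (P10) was sequenced, 5 heterozygous for an Arid1b knockout allele (Arid1b+/–, HT) and 5 wild-type (WT), all on a C57BL/6N background. The knockout allele, C57BL/6N-Arid1b em1Tcp, carries a truncating change in exon 5 made with a Cas9 nickase, and it is present in every cell of the animal from conception, so effects in neurons, glia and other cells are pooled. HT males were bred with WT females, and the sources give no litter for the sequenced pups. Arid1b is a DNA-binding subunit of the BAF (SWI/SNF) complex, which moves nucleosomes using ATP.

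Writers of the SET-domain type and the structurally distinct enzyme Dot1l transfer methyl groups from S-adenosylmethionine to lysines of histones H3 and H4. Methylation of H3 lysine 4 (H3K4) marks promoters and enhancers, methylation of H3K36 and H3K79 marks transcribed gene bodies, and methylation of H3K9, H3K27 and H4K20 is found in repressed chromatin. Erasers of the KDM1 family use flavin, and those of the Jumonji family use iron and 2-oxoglutarate. In the developing cortex these enzymes are known for their part in the timing of neurogenesis and gliogenesis, and mutations in many of their genes cause human neurodevelopmental disorders.

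Arid1b itself (chr17:4994332-5347656, plus strand, GRCm38) served as the check of the genotype labels. HT mice averaged 1894 ± 86.6 normalised counts and WT mice 2842 ± 142 (SD, n = 5 each), and the log2 fold change was -0.59 with an SE of 0.048 (adjusted p = 9.96e-05, limma). The groups did not overlap. Library totals ran from 31106330 to 32106791 normalised counts, and the read depth behind them is unknown. The mitochondrial share was 8.43% in HT mouse 2 and 5.15% to 6.76% in the other 9 mice. All 8 markers of cortical glutamatergic neurons were present in every library, with sums of 54239 to 72400 normalised counts in HT mice and 60548 to 74939 in WT mice. The 10 astrocyte markers were all higher on average in HT mice, 7 of them at an unadjusted limma p under 0.05 and none at an adjusted p under 0.05, with sums of 169003 to 213363 against 153280 to 180417. The 9 microglial and 8 oligodendrocyte-lineage markers were also all higher on average, 2 and 1 of them at an unadjusted limma p under 0.05, where 9.23% of all genes tested were. Striatal markers summed to 5107 to 15872 in HT mice and 3977 to 12582 in WT mice, a wide spread within both groups. Olfactory bulb markers (5 genes) summed to 3157 in HT mouse 2 and 3146 in WT mouse 4, and to 536 to 1868 in the other 8 mice. The part of the glial and olfactory bulb markers in any result for the 41 genes was not tested, and, in bulk tissue, fewer cells of a type and less RNA per cell cannot be told apart.

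The 41 genes covered a wide span of transcript abundance. Per kilobase of the transcript with the longest coding sequence, a scale on which genes can be compared, their median was 309 normalised counts per kb, against 232 over 14716 coding genes. Ehmt2, which together with Ehmt1 places mono- and dimethylation on H3K9, had the highest level at 1472 per kb, above 90.3% of coding genes. Next on this scale were Setd5, a SET-domain protein tied to H3K36, at 839.8, the H3K4 demethylase Kdm1a at 766, the H3K36 dimethyltransferase Nsd2 at 739.9 and Kmt2e at 679. At the other end of the order were Kdm5a at 119, Kdm1b at 98.3, the PRC2 enzyme Ezh2 at 95.9 and Suv39h2, which trimethylates H3K9, at 29.3 per kb, above 14.8% of coding genes. Neighbours in the middle of this order were close: between the genes ranked 26 and 30 (Kdm5b, Kdm3a, Suz12, Kdm2b and Ezh1) the means ran only from 235 to 248 per kb, and their ranges over mice overlapped. Scaled instead by all merged exons, the order had a Spearman correlation of 0.87 with this one over the 41 genes, a description over genes of the same libraries, but some high ranks did not hold. On that scale Setd5 was at 299 per kb (rank 14) and Nsd2 at 315 (rank 11), while Kdm4b and Dot1l, both at 496, took ranks 2 and 3. Ehmt2 ranked first, and Ezh2 and Suv39h2 last, on both scales.

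**Figure D1:**
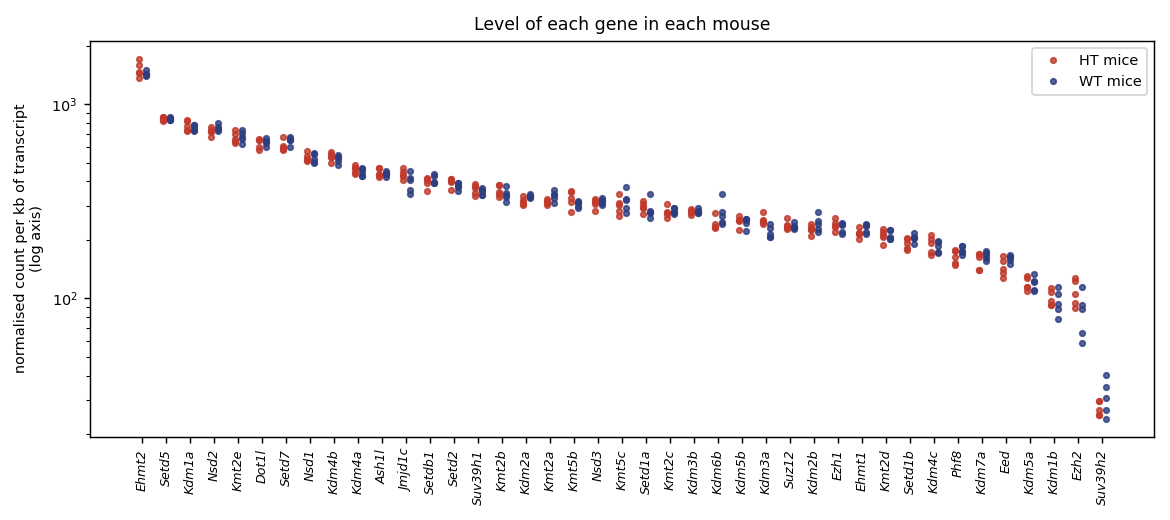
Level of each of the 41 genes in normalised counts per kb of transcript on a log axis, with a point for each HT and WT mouse. Ehmt2 is at the top with a mean of 1472 per kb and Suv39h2 at the bottom with 29.3 per kb, and the HT and WT points of each gene overlap.

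Close relatives differed in their share. Ehmt2 exceeded its partner Ehmt1 per kb by 6.27 to 7.34 times in HT mice and by 5.88 to 6.51 times in WT mice, and Kdm1a exceeded Kdm1b by 6.50 to 9.22 times over all 10 mice. Suv39h1 exceeded Suv39h2 by 8.94 to 15.4 times. The H4K20 enzymes Kmt5b and Kmt5c were near parity on this scale, with a ratio of 0.809 to 1.18. Scaled by merged exons they were not, with Kmt5b at a mean of 131 per kb and Kmt5c at 214. The catalytic PRC2 subunit Ezh1, known for its expression in postmitotic cells, was above Ezh2, known from dividing cells, in every mouse: the ratio of Ezh2 to Ezh1 per kb was 0.377 to 0.577 in HT mice and 0.273 to 0.468 in WT mice. These ratios depend on the transcript length chosen for each gene.

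The 41 transcripts were long, with a median length of 6487 bases against 3054 over the coding genes. The median count of CG dinucleotides in their promoters, where read, was above that of all RefSeq promoters. The choice of genes did not use CG content. Promoters were read from RefSeq (GRCm38.p6) for 29 of the 41 genes. For 27 of them the RefSeq start lay within 1000 bases of the gene start used here. In the 200 bases before the start, these 27 held a median of 18 CG dinucleotides (range 0 to 47) against 5 over 32851 promoters of the same length, and a GC content of 66% against 53%. Unlike the set for transcript length, those 32851 promoters, of 27025 genes, were not limited to the genes tested. The difference can thus not be read as particular to this family. The letters searched were CG, which reads the same on both strands. Kmt2a and Eed are shown as members described below, Kdm7a as the promoter with the most CG dinucleotides and Kdm4c as the promoter with none. Capitals mark CG, and each sequence runs 5′ to 3′ toward the gene.
Kmt2a (chr9:44881290-44881489, minus strand): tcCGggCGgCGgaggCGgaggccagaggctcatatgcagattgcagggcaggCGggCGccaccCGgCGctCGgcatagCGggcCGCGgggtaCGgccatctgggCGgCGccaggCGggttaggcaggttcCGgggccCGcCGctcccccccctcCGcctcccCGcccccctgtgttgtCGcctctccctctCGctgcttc
Eed (chr7:89980977-89981176, minus strand): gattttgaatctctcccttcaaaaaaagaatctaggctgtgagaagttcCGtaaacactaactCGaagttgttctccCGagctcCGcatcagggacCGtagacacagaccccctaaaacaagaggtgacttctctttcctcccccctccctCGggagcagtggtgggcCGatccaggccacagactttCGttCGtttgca
Kdm7a (chr6:39206774-39206973, minus strand): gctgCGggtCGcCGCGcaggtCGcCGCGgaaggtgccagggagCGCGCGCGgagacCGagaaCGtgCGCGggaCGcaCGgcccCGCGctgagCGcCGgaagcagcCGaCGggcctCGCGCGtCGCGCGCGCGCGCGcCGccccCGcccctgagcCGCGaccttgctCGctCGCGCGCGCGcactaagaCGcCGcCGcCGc
Kdm4c (chr4:74242297-74242496, plus strand): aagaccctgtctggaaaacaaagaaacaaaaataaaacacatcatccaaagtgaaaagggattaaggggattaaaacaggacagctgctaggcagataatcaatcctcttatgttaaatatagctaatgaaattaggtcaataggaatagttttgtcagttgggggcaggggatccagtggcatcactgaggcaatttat
These stretches hold 23, 9, 47 and 0 CG dinucleotides, in the order printed. They describe the sequence before the start only, since RNA was the measurement here.

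In the comparison of HT with WT mice, 0 of the 41 genes passed an adjusted p of 0.05 (limma on log2(value + 1), Benjamini-Hochberg over 16781 genes), where 0.0179% of all genes did. At an unadjusted limma p under 0.05 there were 4 of 41 (9.76%), against 9.23% of all genes. They were Kdm3a and Ezh2, higher in HT mice, where 4.71% of all genes were called in that direction, and Kmt2a and Kdm2a, lower, where 4.52% were. No gene of the 41 had HT and WT values that did not overlap, against 1.62% of all genes (0.703% with HT higher and 0.918% with HT lower). The log2 fold change was above 0 for 19 of the 41 (46.3%, against 48.8% of all genes) and below 0 for 22, and its median was -0.0036 over the 41 genes and -0.0035 over all genes. Over 25 alternative fits, in which 6.02% to 10.9% of all genes had an unadjusted limma p under 0.05, Kdm3a had one in 25, Ezh2 in 17, Kmt2a in 13, Kdm6b in 10, Kdm2a in 8, Jmjd1c in 7, Eed in 6, Kmt5b in 5, Setd1b in 4, Phf8 in 3 and Setd2 and Setd7 in 2 each. The other 29 genes had it in none, and how many of all genes had it in as many fits was not counted.

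The differences were bounded closely. For 33 of the 41 genes (80.5%) the 95% interval of the HT to WT ratio lay within 1.2-fold in either direction, against 46.1% of all genes tested and 62.1% of the 11316 genes whose mean lay in the range of the members. The median standard error of the log2 fold change was 0.056, against 0.087 over all genes, and the median SD between mice of the same genotype was 0.087 on the log2 scale, against 0.14. Setd5 was the steadiest, at 5327 to 5588 normalised counts in HT mice and 5401 to 5599.6 in WT mice, with a log2 fold change of -0.0017 (95% interval -0.077 to 0.074). The 8 genes whose interval reached past 1.2-fold were Kdm3a, Ezh2, Jmjd1c, Kdm6b, Eed, Suv39h2, Kmt5c and Kdm1b. Summed over the 41 genes, HT mice held 103768 to 107034 normalised counts and WT mice 102553 to 108781.

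**Figure D2:**
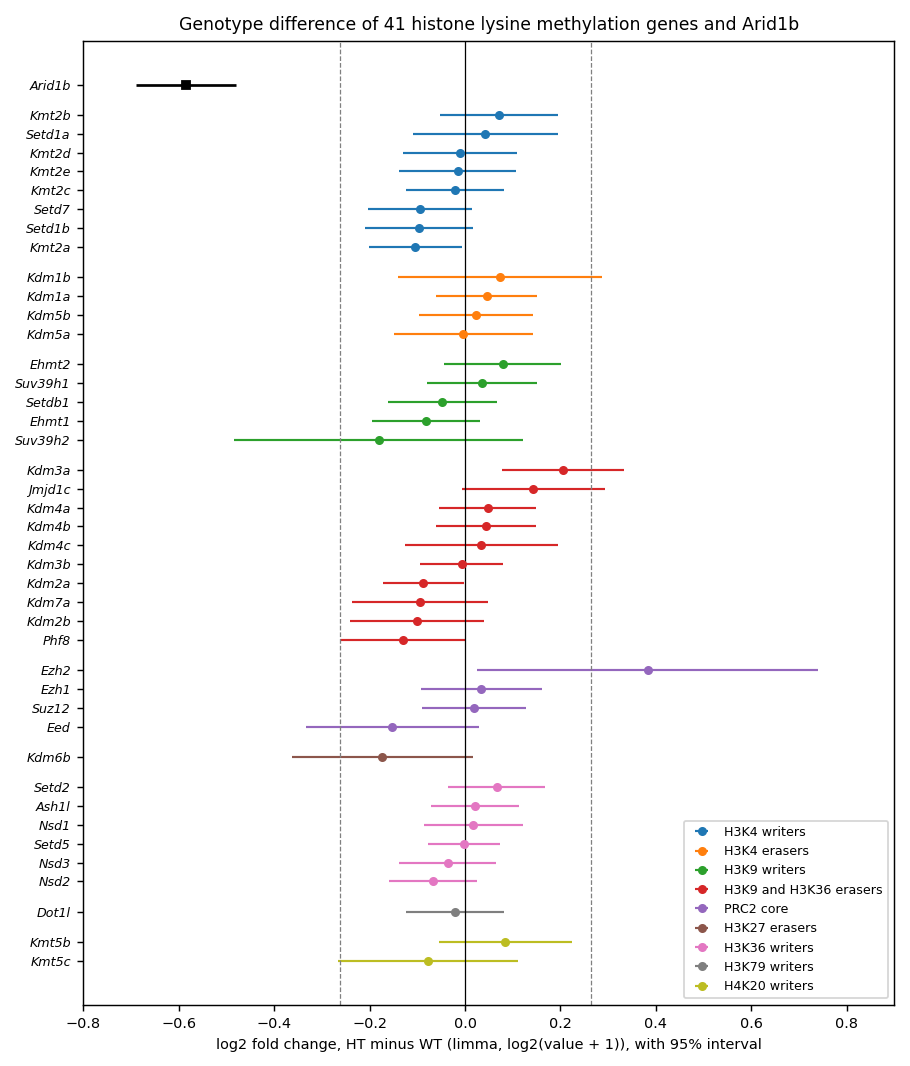
Log2 fold change of HT against WT for each of the 41 genes, and for Arid1b at the top, with its 95% interval from limma, grouped by the mark written or erased, with lines at 1.2-fold in either direction. The intervals of 33 of the 41 genes stay between the lines, and those of the other 8, among them Kdm3a, Ezh2, Kdm6b and Suv39h2, cross a line.

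The 8 genes classed here as H3K4 writers were Kmt2a to Kmt2e, Setd1a, Setd1b and Setd7, and their enzyme activity was not measured. Of these, 2 were higher and 6 lower in HT mice, with a median log2 fold change of -0.018 (all genes -0.0035). Kmt2a, the MLL1 enzyme that trimethylates H3K4 at promoters (chr9:44803355-44881296 on the minus strand, GRCm38), had 5145, 4992, 5355, 5229.9 and 5076 normalised counts in HT mice 1 to 5. The values in WT mice 1 to 5 were 5659.6, 5389, 5628, 5964 and 5126. All 5 HT mice lay below the WT mean and 2 lay below every WT mouse, while WT mouse 5 was within the HT range. The means were 5159.8 ± 140.0 and 5553 ± 314 (SD, n = 5 each), a log2 fold change of -0.10 (SE 0.045 and adjusted p by limma of 0.51). Without HT mouse 2 and WT mouse 4 it was -0.067 (limma adjusted p = 0.64). Relative to its closest relative Kmt2b, per kb, the ratio was 0.792 to 0.956 in HT mice and 0.905 to 1.09 in WT mice.

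Kmt2d, which monomethylates H3K4 at enhancers, ranged from 3750.5 to 4525 normalised counts in HT mice and from 4005 to 4481 in WT mice, and its log2 fold change was -0.011 (95% interval -0.13 to 0.11). Its sign turned under several alternatives and its interval spans 0. Setd1b and Setd7 had log2 fold changes of -0.10 and -0.095, with limma adjusted p of 0.57 and 0.57. The values of Setd1a are uncertain, because 51.8% of its 31-base words also occur in annotated transcripts of other genes, the foremost of them Gm49388, which overlaps it on the same strand.

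Of the H3K4 erasers Kdm1a, Kdm1b, Kdm5a and Kdm5b, 3 were higher and 1 lower on average, and the interval of Kdm1b alone reached past 1.2-fold. Kdm1a, also called LSD1, which removes mono- and dimethylation as part of the CoREST complex, was at 2208 to 2522 normalised counts in HT mice and 2199 to 2359.5 in WT mice, with a log2 fold change of 0.045 (95% interval -0.061 to 0.15), which ran from 0.020 (without HT mouse 5) to 0.068 (without HT mouse 3) with single mice left out. Kdm5b, which removes H3K4 trimethylation, was at 1958 to 2308 and 1926 to 2226, with 0.023 (-0.10 to 0.14). In both genes the HT and WT ranges overlapped.

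The H3K9 writers Ehmt1, Ehmt2, Setdb1, Suv39h1 and Suv39h2 had a median log2 fold change of -0.048, with 2 higher and 3 lower. Ehmt1 and Ehmt2, also called GLP and G9a, form a single heterodimeric enzyme. Ehmt1 had 1208 to 1392 normalised counts in HT mice and 1273 to 1441 in WT mice, a log2 fold change of -0.082 (SE 0.053 and adjusted p by limma of 0.62), and Ehmt2 had 5470.4 to 6892 and 5603 to 6001, a log2 fold change of 0.079 (SE 0.057 and adjusted p by limma of 0.65). For Ehmt2 it was 0.034 without HT mouse 2 and -0.0080 without HT mice 2 and 5. Suv39h2 had the lowest fold change of the 41 at -0.18 and the lowest level, and its interval from -0.48 to 0.12 was wide. Setdb1 shares 10.1% of its 31-base words with other genes, the foremost of them Gm4349, which was listed at 0.81 to 15.5 normalised counts.

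The largest class was that of the H3K9 and H3K36 erasers, 10 Jumonji genes (Kdm2a, Kdm2b, Kdm3a, Kdm3b, Kdm4a, Kdm4b, Kdm4c, Kdm7a, Phf8 and Jmjd1c), with 5 higher and 5 lower. Kdm3a, which removes mono- and dimethylation from H3K9 (chr6:71588972-71632990, minus strand), had 1350.0, 1193, 1169, 1213 and 1235 normalised counts in HT mice 1 to 5. WT mice 1 to 5 had 1043, 1003, 1004, 1117 and 1178. In 4 HT mice it was above every WT mouse, and HT mouse 3 was below WT mouse 5 alone. The means were 1232 ± 70.3 and 1069 ± 76.8 (SD, n = 5 each). The ratio was 1.15-fold and the log2 fold change 0.21 (SE 0.06, 95% interval 0.078 to 0.33, adjusted p by limma of 0.43), the smallest p of the 41.

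Kdm3a was the only gene of the 41 with an unadjusted limma p under 0.05 under all 25 alternative fits. These fits reuse the same mice, and the share of all genes called in all 25 was not counted. The log2 fold change of Kdm3a lay between 0.17 and 0.24 when each mouse in turn was left out. Its relative Kdm3b, with the same substrate, had a log2 fold change of -0.0069 (95% interval -0.094 to 0.08), and the ratio of Kdm3b to Kdm3a per kb was 0.968 to 1.16 in HT mice and 1.14 to 1.36 in WT mice. Jmjd1c, the remaining relative of the KDM3 family, was at 3425 to 3924 in HT mice and 2871 to 3785 in WT mice, with a log2 fold change of 0.14 and a limma adjusted p of 0.55.

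Kdm2a, which removes H3K36 dimethylation and binds unmethylated CG-rich DNA (chr19:4314419-4398285, minus strand), had 2696, 2636, 2869.9, 2738 and 2600.0 normalised counts in HT mice 1 to 5. WT mice 1 to 5 had 2879, 2938, 2823, 2876 and 2865. In 4 HT mice it was below every WT mouse, and HT mouse 3 was in the midst of the WT range. The means were 2708 ± 105 and 2876 ± 41.2 (SD, n = 5 each), a log2 fold change of -0.088 (SE 0.04 and adjusted p by limma of 0.53). Single mice left out gave -0.11 to -0.073, and leaving out HT mice 2 and 5 gave -0.056 (limma adjusted p = 0.89). Kdm2b, Kdm7a and Phf8 had log2 fold changes of -0.10, -0.094 and -0.13, with limma adjusted p of 0.62, 0.64 and 0.54.

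**Figure D3:**
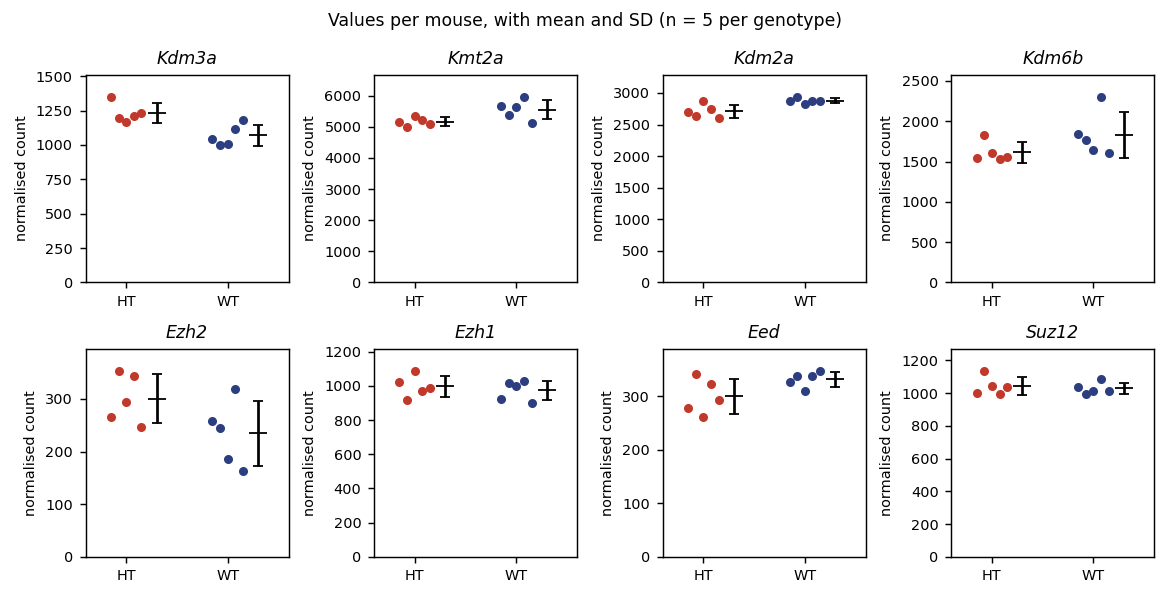
Normalised counts of 8 of the genes in each of the 5 HT and 5 WT mice, with the mean and SD at the side and axes from 0. The HT points of Kdm3a sit high and those of Kdm2a and Kmt2a low relative to WT, with at least 1 mouse of overlap in each, and the HT and WT points of Ezh1 and Suz12 cover similar ranges.

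PRC2, the complex that methylates H3K27, needs Ezh1 or Ezh2 together with Eed and Suz12. Ezh2 (chr6:47530139-47595341, minus strand) had 265, 353, 294, 343 and 247 normalised counts in HT mice 1 to 5, and 258, 245, 185, 319 and 164 in WT mice 1 to 5. HT mice 2 and 4 were highest and WT mice 3 and 5 lowest, with WT mouse 4 above the mean of the HT mice. The means were 300.4 ± 46.6 and 234 ± 61.9 (SD, n = 5 each). The log2 fold change of 0.38 was the highest of the 41 and had the widest error (SE 0.17, 95% interval 0.025 to 0.74, adjusted p by limma of 0.52). Leaving out each mouse in turn gave 0.26 to 0.50, and leaving out both HT mouse 2 and WT mouse 4 gave 0.44.

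Ezh2 levels were set beside markers of dividing cells. The sum of 10 cycling-cell genes, such as Mki67 and Top2a, was 1601, 2248, 1993, 2388 and 2140 normalised counts in HT mice 1 to 5 (to the nearest whole count) and 2329, 1674, 1520, 2373 and 1500 in WT mice 1 to 5. The 3 mice with the highest Ezh2 (HT mice 2 and 4 and WT mouse 4) had sums of 2248, 2388 and 2373. The 2 mice with the lowest Ezh2 (WT mice 3 and 5) had sums of 1520 and 1500. WT mouse 1 had a high sum of 2329 with an Ezh2 value of 258. Of the 10 genes, 9 were higher on average in HT mice, 1 with an unadjusted limma p under 0.05, and none was at 0 in any library. Their part in the Ezh2 result was not tested. The mice lowest in Ezh2 in each group, WT mice 3 and 5 and HT mouse 5, were also lowest in striatal markers, with sums of 3977, 4412 and 5107 against 10388 to 15872 in the other 7 mice. With the striatal sum as a covariate the log2 fold change of Ezh2 was 0.27 (limma adjusted p = 0.50).

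**Figure D4:**
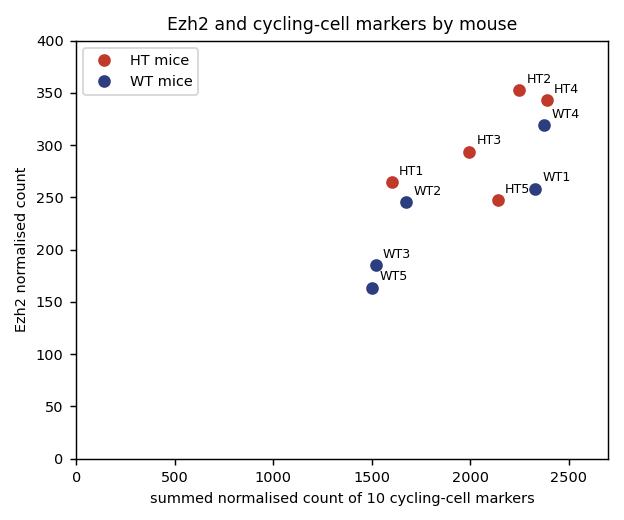
Ezh2 in normalised counts against the sum of 10 cycling-cell genes in normalised counts, 1 point per mouse. The mice with Ezh2 of 319 to 353 have sums of 2248 to 2388, and the mice with Ezh2 of 164 and 185 have sums of 1500 and 1520.

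The other PRC2 core genes had fold changes nearer to 0 than Ezh2, and the difference between them was not tested. Ezh1 had 919 to 1086 normalised counts in HT mice and 902 to 1027 in WT mice, a log2 fold change of 0.034 (95% interval -0.092 to 0.16), and Suz12 had 998 to 1135 and 994 to 1085, a log2 fold change of 0.018 (-0.091 to 0.13). With each mouse left out in turn, Ezh1 ran from 0.0031 (without HT mouse 3) to 0.063 (without HT mouse 2), and it was 0.083 without HT mouse 2 and WT mouse 4. Eed, which reads trimethylated H3K27, had 278, 341, 262, 324 and 292 in HT mice 1 to 5 and 327, 337, 309, 337 and 347 in WT mice 1 to 5, with 3 HT mice below every WT mouse and HT mouse 2 among the highest. Its log2 fold change was -0.15 (SE 0.084 and adjusted p by limma of 0.58). It was -0.20 without HT mouse 2, -0.20 without both HT mouse 2 and WT mouse 4 (limma adjusted p = 0.55), and -0.24 with the mitochondrial covariate (limma adjusted p = 0.57).

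The H3K27 demethylase Kdm6b, also called JMJD3, had 1548, 1832, 1601, 1529 and 1556 normalised counts in HT mice 1 to 5 and 1843, 1766, 1639, 2303 and 1605 in WT mice 1 to 5. WT mouse 4 was the highest by a wide margin and HT mouse 2 stood apart from the other HT mice, and these were the mice with the highest olfactory bulb marker sums (3146 and 3157). The part of those markers in the Kdm6b values was not tested. The log2 fold change was -0.17 (SE 0.088 and adjusted p by limma of 0.56). Without HT mouse 2 the groups of Kdm6b did not overlap, as held for 2.37% of all genes tested without that mouse. Without WT mouse 4 the log2 fold change was -0.088 (limma adjusted p = 0.60), and without HT mouse 2 it was -0.22 (limma adjusted p = 0.67). Without both HT mouse 2 and WT mouse 4, the log2 fold change was -0.13 (limma adjusted p = 0.52), and Kdm6b was the 1 gene of the 41 without overlap, where 5.03% of all genes had none.

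The H3K36 writers Nsd1, Nsd2, Nsd3, Ash1l, Setd2 and Setd5 split into 3 higher and 3 lower, and all 6 had intervals within 1.2-fold. Setd2, which alone adds the third methyl group to H3K36, had 3421, 3319, 3427, 3368 and 3009 normalised counts in HT mice 1 to 5 and 3265, 2971, 3147, 3287 and 3127 in WT mice 1 to 5. HT mouse 5 lay apart from the other 4, which were all above every WT mouse. The log2 fold change was 0.066 (SE 0.047 and adjusted p by limma of 0.65), and 0.10 without HT mouse 5. Nsd1, the dimethyltransferase mutated in Sotos syndrome, was at 6536 to 7339 in HT mice and 6381 to 7201 in WT mice, with a log2 fold change of 0.017 (95% interval -0.086 to 0.12).

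For the remaining marks, Dot1l, the H3K79 methyltransferase, was at 3942 to 4519.7 normalised counts in HT mice and 4118 to 4552 in WT mice, with a log2 fold change of -0.022 (95% interval -0.12 to 0.081). Kmt5b, which adds methyl groups to H4K20, was at 1700.0 to 2195 and 1792 to 1936, with 0.084 (-0.055 to 0.22), and Kmt5c had -0.077 (-0.27 to 0.11). For Kmt5b single mice moved the value: it was 0.049 without HT mouse 1, 0.054 without HT mouse 4 and 0.14 without HT mouse 2 (limma adjusted p = 0.63). It reached 0.18 without HT mice 2 and 5 (limma adjusted p = 0.62). The intervals of Kmt5b and Kmt5c overlapped, and their difference itself was not tested. Writers with the PRC2 core (26 genes) held 11 higher and 15 lower, and erasers (15 genes) 8 higher and 7 lower.

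The deviations of single mice from the mean of all 10 were small for the family as a whole. Their median over the 41 genes ran from -0.041 in HT mouse 5 to 0.052 in WT mouse 4 on the log2 scale. WT mouse 4 had the highest value of the 10 mice for 10 of the 41 genes and HT mouse 2 the lowest for 7. For 3 genes every HT mouse exceeded the WT mean, and for 5 genes every HT mouse fell short of it. The same share over all genes tested was not counted, so these counts are not read as a result.

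**Figure D5:**
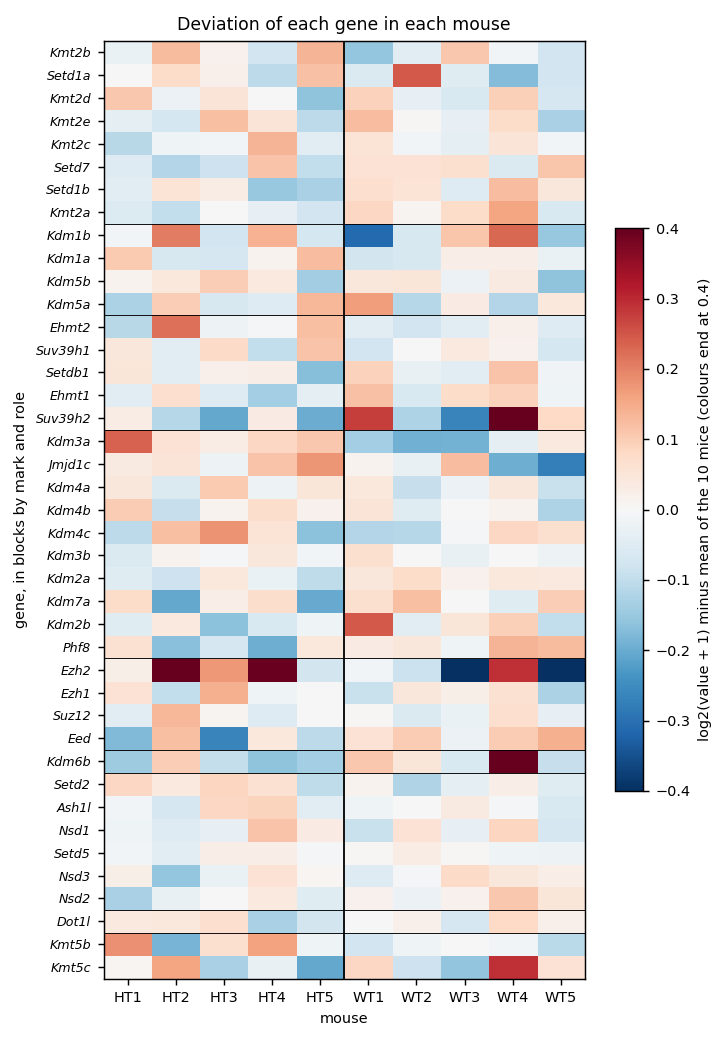
Deviation of each mouse from the mean of all 10 mice on the log2 scale, for each of the 41 genes, with HT and WT mice side by side and the colour scale in log2 units ending at 0.4 in either direction. Most cells are near 0, with the strongest colours in the rows of Ezh2, Suv39h2 and Kdm6b.

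The protein partners of these enzymes and further lysine methylation enzymes gave 86 tested genes of 87 listed (Ezhip was not in the table used here). None passed an adjusted p of 0.05, and 11 (12.8%) had an unadjusted limma p under 0.05, 8 higher and 3 lower, against 9.23% of all genes. Their median log2 fold change was -0.011. Epop, an accessory PRC2 subunit that links it to Elongin, had 703, 709.6, 695, 762 and 726 normalised counts in HT mice 1 to 5 and 648, 669.7, 500.0, 505 and 602 in WT mice 1 to 5, so every HT mouse was above every WT mouse. The means were 719 ± 26.7 and 585 ± 79.1 (SD, n = 5 each), a log2 fold change of 0.31 (SE 0.084 and adjusted p by limma of 0.41). Wdr82, the subunit that ties Setd1a and Setd1b to RNA polymerase II, was lower in every HT mouse (4457 to 4803) than in any WT mouse (4814 to 5268), with a log2 fold change of -0.092 (limma adjusted p = 0.53). These were the 2 partners of 86 (2.33%) without overlap, against 1.62% of all genes.

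Other partners with low unadjusted p were Kdm5d, a Y-linked H3K4 demethylase, with a log2 fold change of 0.17 (limma adjusted p = 0.48), and the PRC1 subunit Phc1 with 0.17 (0.49). In the other direction were the PR-domain proteins Prdm10 with -0.17 (limma adjusted p = 0.48) and Prdm15 with -0.15 (0.51). Among the 8 PRC2 accessory genes 5 were higher and 3 lower, and among the 12 subunits of the H3K4 writer complexes 4 were higher and 8 lower.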

How the data were processed

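Prefrontal cortex RNA of 5 HT and 5 WT male mice (P10) was sequenced from poly-A-selected, stranded libraries. The authors quantified reads with Salmon 1.1.0 on GRCm38 with GC bias correction, imported the estimates per gene and deposited a normalised count signal, divided by DESeq2 1.30.1 size factors. Between 14.1% and 43.8% of low values in a library were whole multiples of a single step (tolerance 0.05 steps), so whole reads could not be regained, and the depth and the counting error of each library remain unknown. Samples were grouped by their titles, and each column was matched to its sample by name.

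Genes were named by GENCODE M21 (18205 of 18216). Genes with a mean of at least 10 were tested on log2(value + 1) with limma 3.58.1 (R 4.3.3, empirical Bayes with a mean-variance trend, two-sided), with Benjamini-Hochberg adjustment over 16781 genes, after a test of the script on simulated data. The fold change understates that of low genes. The study's count test was replaced since the deposited values are not counts. The labels give R 4.1.1 for the upstream steps. Levels per kb used the transcript with the longest coding sequence. The members and all lists were chosen with earlier results of these data known. Named genes were members with an unadjusted p under 0.05 or without overlap, fixed members for each mark, Arid1b, and the 3 partners with the smallest p in each direction, and other members are given by class or at the ends of a range. The 1.2-fold bound for intervals was set after values were seen. The sources name WT littermates for other assays of the study but give no litter for each sequenced mouse, and p-values measure the spread between these mice. Alternatives covered pseudocount, filter, scaling, trend, weights, replicate block, GC and length, striatal and mitochondrial covariates, and left-out mice.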

Additional observations from a re-analysis of the deposited data

Results flagged for a closer look

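Among 48 groups of 5 mice examined (24 genes named with values, HT and WT), 2 had a mouse far from the other 4, where chance gives about 1 in 20 groups, or 2.4. Kdm6b in HT mouse 2 was 1832 normalised counts, with the other HT mice at 1529 to 1601. The olfactory bulb marker sum of that mouse was 3157, against 582 to 1411 in the other HT mice, and its part in the Kdm6b value was not tested. Setd2 in HT mouse 5 was 3009, with the other HT mice at 3319 to 3427. Without HT mouse 5 the groups of Setd2 did not overlap, as held for 2.11% of all genes tested without that mouse.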

How the results depend on the processing

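None of the 41 genes passed an adjusted p of 0.05 under any of the 25 alternative fits, the count of intervals within 1.2-fold, added after seeing the data, ran from 30 to 34, and the median log2 fold change stayed between -0.013 and 0.019. Arid1b kept its direction and its call throughout, from -0.61 to -0.55. The count with unadjusted p under 0.05 and lower in HT, 2 as reported, was 1 with quantile normalisation (5.01% of all genes), 0 without the mean-variance trend (4.04%), 3 with sample weights (4.31%, Kdm6b, Eed and Setd1b) and with the GC and length correction (4.71%), and 4 with the striatal covariate (4.83%). The count of higher genes, also 2, was 1 without that trend (4.49% of all genes) and 3 with quantile normalisation, sample weights, the GC and length correction with or without the replicate block, the striatal covariate and each joint omission of mice (2.96% to 5.03%). With each mouse left out in turn, the counts were 1 to 3 for higher genes (3.38% to 5.74% of all genes), 0 to 3 for lower genes (3.08% to 5.33%) and 0 to 2 for genes without overlap (2.11% to 3.90%). Without HT mice 2 and 5, 3 genes did not overlap (Kdm6b, Setd2 and Kmt5b), with 4.17% of all genes. Without HT mouse 2 and WT mouse 4, a choice added after seeing the data, 1 gene did not overlap (Kdm6b), with 5.03% of all genes. For these changes the cause was not tested.

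Fold changes near 0 changed sign. Dot1l became 0.0016 and Kmt2d 0.0070 with quantile normalisation. Kmt2d was 0.012 with sample weights, 0.0078 with the mitochondrial covariate, 0.048 without HT mice 2 and 5 and 0.016 without HT mouse 2 and WT mouse 4. Suz12 was -0.013 with the mitochondrial covariate and -0.021 without HT mice 2 and 5, Kdm5b was -0.013 with the striatal covariate, and Ehmt2 was -0.0080 without HT mice 2 and 5. With each mouse left out in turn, Dot1l ran from -0.041 to 0.0080, Kdm5b from -0.015 to 0.060, Nsd1 from -0.0090 to 0.041, Suz12 from -0.013 to 0.038 and Kmt2d from -0.039 to 0.028.

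With the replicate number as a block, the count lower in HT fell to 1 (4.20% of all genes), that of higher genes was 2 (4.79%) and no gene passed an adjusted p. The correlation of deviations between mice of the same number was -0.041 to 0.10, against a mean of -0.0091 between different numbers, and the numbers were not taken as pairs. Depth is unknown, and Ezh2 and Suv39h2 had the largest standard errors of the 41 genes (0.17 and 0.14).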
